A study of Komagataella pastoris with 4 samples.

Results

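The methylotrophic yeast Pichia pastoris was grown on methanol. In each of 3 regulator-deletion strains, 53 genes kept by a word filter on descriptions had lower transcript levels than in the parent strain. They were selected on their own read counts: after scaling by median-of-ratios size factors and adding 0.5 to each count, a row of the table had to be at least 2-fold below the wild type in all 3 deletion libraries. Of 5420 rows compared, 65 (1.20%) met this size rule, and 12 of them were taken out because their descriptions named alcohol oxidase, dihydroxyacetone, transaldolase, aldolase, ribosomal protein or peroxisomes. The remaining 53 are the members described here, all of them protein-coding. Since the ratios to the wild type chose the members, those ratios describe the set and test nothing. One of the 53 is a ribosomal protein row, gene721, whose wording escaped the description filter.

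The wild type was GS115, a histidine auxotroph without an antibiotic resistance. The other strains were histidine auxotrophs resistant to Zeocin, described as deletion mutants of Mxr1, of Gal83 and of Gcn5. All 4 were cultured for 14 h in minimal medium with methanol, and each gave 1 library. Mxr1 is a zinc-finger activator of methanol genes, Gal83 is known as a targeting subunit of the Snf1 kinase, and Gcn5 as the histone acetyltransferase in SAGA. The Zeocin marker was carried by all 3 deletion strains and not by the wild type, so its presence and the loss of a regulator cannot be told apart in a set defined as lower in all 3. The 3 comparisons also share the single wild-type library: a gene that happened to be high in that culture alone would meet the rule in every comparison, and this was not tested, because 1 wild-type library was analysed here.

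Methanol enters metabolism in peroxisomes, where alcohol oxidase makes formaldehyde and hydrogen peroxide. Formaldehyde is then either burned for energy or joined to xylulose 5-phosphate, and sugar-phosphate rearrangements related to the pentose phosphate pathway regenerate the acceptor. Cells on methanol therefore depend on glutathione, on sugar-phosphate enzymes and on the supply of amino acids, lipids and cofactors for growth from a single-carbon substrate.

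Total counts were between 30582006 and 48539082 per library. The row for Gcn5 (gene3103) held 3 counts in the Gcn5-deletion library, and the row for a Snf1 beta-subunit (gene1360) held 8 in the Gal83-deletion library, so these labels were borne out. No row carries the name Mxr1, so that label was not checked and the library is called Mxr1-labelled. Where values follow one another, the order is wild type, Mxr1-labelled, Gal83 deletion, Gcn5 deletion, and ratios omit the wild type. Levels are given as scaled counts per row, which may be compared between libraries but not between genes, because the table holds no gene lengths. Brackets hold exact 95% Clopper-Pearson counting intervals of a log2 ratio to the wild type. They cover counting error only, and with 1 library per strain no difference between cultures could be tested.

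Counts of lower or higher rows here and in what follows are at a limit of 2-fold. As background, 564 rows (10.4%) were at least 2-fold lower under the Mxr1 label, 595 (11.0%) without Gal83 and 276 (5.09%) without Gcn5. The 65 rows lower in all 3 were 11.5%, 10.9% and 23.6% of these lists. Among the 53 members the median log2 ratio was -2.21 under the Mxr1 label, -1.64 without Gal83 and -1.46 without Gcn5, where the medians over all rows were -0.02, -0.01 and -0.02. These medians correspond to 21.6%, 32.1% and 36.2% of the wild-type level. The rule had already set 2-fold, and rows past 4-fold were not counted over the whole table, so counts at 4-fold only describe the members. At least 4-fold lower were 30 members in the Mxr1-labelled, 16 in the Gal83-deletion and 14 in the Gcn5-deletion library, and 5 members were at least 4-fold lower in all 3. Those 5 encode a GST-like protein, an FAD/NAD(P)-binding protein, farnesyl pyrophosphate synthase, an ammonia export protein and an undescribed protein (gene3172, gene4110, gene1155, gene764 and gene2294). Together the members took 2.38% of all counts in the wild type and 0.328%, 0.710% and 0.506% in the deletion libraries.

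**Figure D1:**
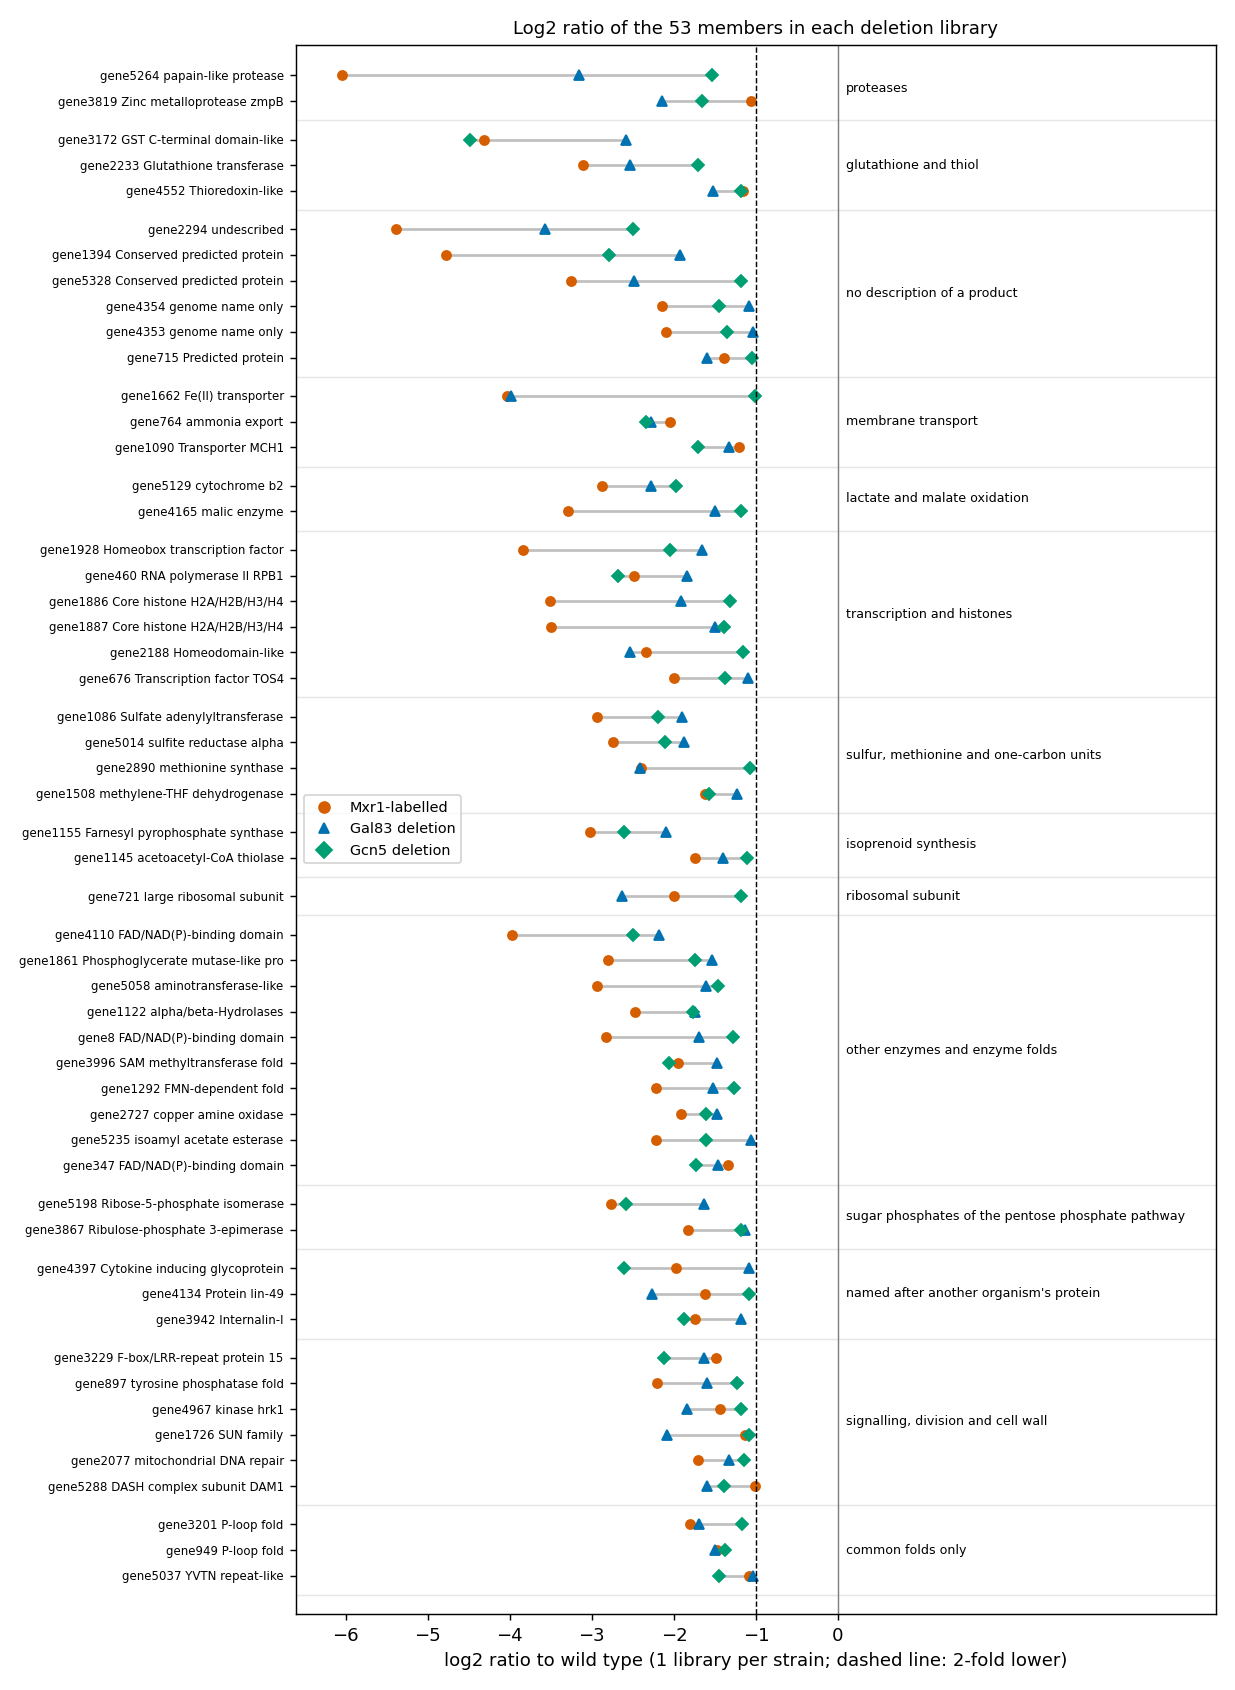
Log2 ratio to the wild type (x axis) of each of the 53 members (y axis), grouped by the role their description gives, with 1 symbol per deletion library and a dashed line at 2-fold lower. All symbols lie left of the dashed line because this chose the members, and those of the Mxr1-labelled library reach furthest, to -6.04 for gene5264.

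The members closest to methanol assimilation were enzymes that interconvert five-carbon sugar phosphates. Ribose-5-phosphate isomerase (gene5198), which exchanges ribulose and ribose phosphates, had 17604 scaled counts in the wild type, 2579 under the Mxr1 label, 5658 without Gal83 and 2942 without Gcn5. Its log2 ratios were -2.77 [-2.83 to -2.71], -1.64 [-1.68 to -1.60] and -2.58 [-2.64 to -2.52], so among the mutants it was highest in the Gal83-deletion library. Ribulose-phosphate 3-epimerase (gene3867), which makes xylulose 5-phosphate, had 6234, 1757, 2842 and 2744 scaled counts in the same order of libraries.

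Each of these enzymes has a second row with the same description directly beside it in the table, and both second rows stopped just short of the rule. The second isomerase row (gene5197) was at log2 -1.05, -0.996 and -1.46, so it missed 2-fold without Gal83 alone. The second epimerase row (gene3868) was at -2.47, -0.92 and -1.89, lower than its neighbour in the Mxr1-labelled and Gcn5-deletion libraries. The transaldolase rows gene2049 and gene2050, taken out by name, were between -2.55 and -2.15 in every deletion library, while another transaldolase row (gene2048) beside them was at -0.05, 0.95 and 0.24. Neighbouring copies can share reads in counting, and as no sequences were compared here the split within each pair is uncertain.

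The lower rows of this pathway were those of its non-oxidative, rearranging branch and a row for dihydroxyacetone synthase (gene3440), which joins formaldehyde to xylulose 5-phosphate. A list of 12 rows for the pentose phosphate pathway was put together after the values were seen. It held 7 rows lower in the Mxr1-labelled, 5 in the Gal83-deletion and 6 in the Gcn5-deletion library. Over all rows the shares were 10.4%, 11.0% and 5.09%, but a list made around members holds some lower rows by its making. The oxidative enzymes were not among the lower rows. Glucose-6-phosphate 1-dehydrogenase (gene2725), which opens the oxidative branch, was at log2 -0.11, 1.06 and -0.39. The 6-phosphogluconate dehydrogenase row (gene4051) was at 0.23, 0.05 and 0.57, and 6-phosphogluconolactonase (gene3105) at 0.73, 0.20 and 0.38. A transketolase row (gene968), which belongs to the rearranging branch, was at 0.28, 1.20 and 1.59.

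The members with roles in sulfur and one-carbon metabolism were 4. Sulfate adenylyltransferase (gene1086), which activates sulfate for reduction, had 13957 scaled counts in the wild type and 1820, 3722 and 3057 in the deletion libraries. The alpha-component of sulfite reductase (gene5014), which carries electrons from NADPH to make sulfide, had 21691, 3247, 5889 and 5021. These 2 rows had close ratios in each library, at log2 -2.94, -1.91 and -2.19 for the first and -2.74, -1.88 and -2.11 for the second. The beta subunit of sulfite reductase (gene3151) was outside the set only through the Gal83-deletion library, at -1.48, -0.94 and -1.79.

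Methionine synthase (gene2890), the cobalamin-independent enzyme that methylates homocysteine, had another pattern. Its scaled counts were 44994 in the wild type, 8511 under the Mxr1 label, 8453 without Gal83 and 21420 without Gcn5, so it was at about the same low level under the Mxr1 label and without Gal83, and at 47.6% of the parent level without Gcn5. The trifunctional methylenetetrahydrofolate enzyme (gene1508), which interconverts the folate carriers of one-carbon units, was nearly even at 32.4%, 42.5% and 33.7% of the wild type.

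A list of 13 rows running from sulfate uptake to methionine and its adenosyl form was made after the values were seen. Of these, 7 were lower in the Mxr1-labelled, 4 in the Gal83-deletion and 7 in the Gcn5-deletion library. Over all rows the shares were 10.4%, 11.0% and 5.09%, but this list was also made around members. The sulfate transporter rows were not 2-fold lower in any deletion library: gene596 was at 0.25, 0.18 and 0.57 and gene1022 at 1.02, -0.22 and 0.87. S-adenosylmethionine synthase (gene3388) was at -1.93, -0.92 and -0.26. A row of the phosphoadenosine phosphosulfate reductase family (gene4205) was at -2.13, -0.31 and -1.02. Cystathionine gamma-synthase (gene2229) was above the wild type, at 0.06, 1.25 and 0.75. In the wider list of 247 rows for amino acid synthesis, 7 were members. It was matched by words that also catch other uses of amino acid names. In the deletion libraries 35, 43 and 30 of its rows were lower, beside 10.4%, 11.0% and 5.09% of all rows.

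Of the isoprenoid pathway, which builds sterols from acetyl units, 2 enzymes were members. Farnesyl pyrophosphate synthase (gene1155), which makes the last precursor shared by sterols and prenyl groups, had 19137 scaled counts in the wild type, 2357 under the Mxr1 label, 4478 without Gal83 and 3135 without Gcn5. Its log2 ratios were -3.02 [-3.09 to -2.96], -2.10 [-2.14 to -2.05] and -2.61 [-2.67 to -2.55]. Acetoacetyl-CoA thiolase (gene1145), which catalyses the first step, was at 30.0%, 37.8% and 46.2% of the wild type. None of the listed enzymes between them was at least 2-fold lower in all 3 libraries. Isopentenyl diphosphate isomerase (gene1284), which acts just before farnesyl pyrophosphate synthase, was under the wild type in each, at log2 -0.58, -1.65 and -0.83. Of the earlier steps, mevalonate kinase (gene200) was at -0.10, -0.02 and 0.05 and diphosphomevalonate decarboxylase (gene809) at 0.10, -0.50 and 0.36. Phosphomevalonate kinase (gene2024) was at -0.54, 0.84 and -0.13. HMG-CoA synthase (gene2854) was at 0.22, -1.04 and -0.43 and HMG-CoA reductase (gene1922) at 0.23, -1.27 and 0.02, both past 2-fold in the Gal83-deletion library alone. Of 12 rows from acetyl-CoA to sterol, again listed with the values known, 3, 5 and 3 were lower in the deletion libraries. The shares over all rows were 10.4%, 11.0% and 5.09%.

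The glutathione-related members included the one with the most counts in the set. A row with the C-terminal domain fold of glutathione S-transferases (gene3172), enzymes that join glutathione to reactive compounds, had 143403 scaled counts in the wild type, 7213 under the Mxr1 label, 23998 without Gal83 and 6388 without Gcn5. It was the only member at least 8-fold lower in the Gcn5-deletion library, at log2 -4.49 [-4.53 to -4.45]. A row described as glutathione transferase (gene2233) had 43630, 5080, 7539 and 13393 scaled counts, ordered differently among the deletion strains. A thioredoxin-like row (gene4552) was at 45.0%, 34.7% and 43.9% of the wild type.

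The other 6 of 8 rows described as glutathione transferases were outside the set, so by the rule none was 2-fold lower in all 3 libraries. One of them (gene2521) was at log2 -1.93, -0.61 and 0.81, and the remaining 5 lay between -0.83 and 1.28 in all 3 libraries. The plot of rows sharing a description with members also shows core histones and rows named RPB1. That members lie under the other rows there follows from how they were chosen.

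**Figure D2:**
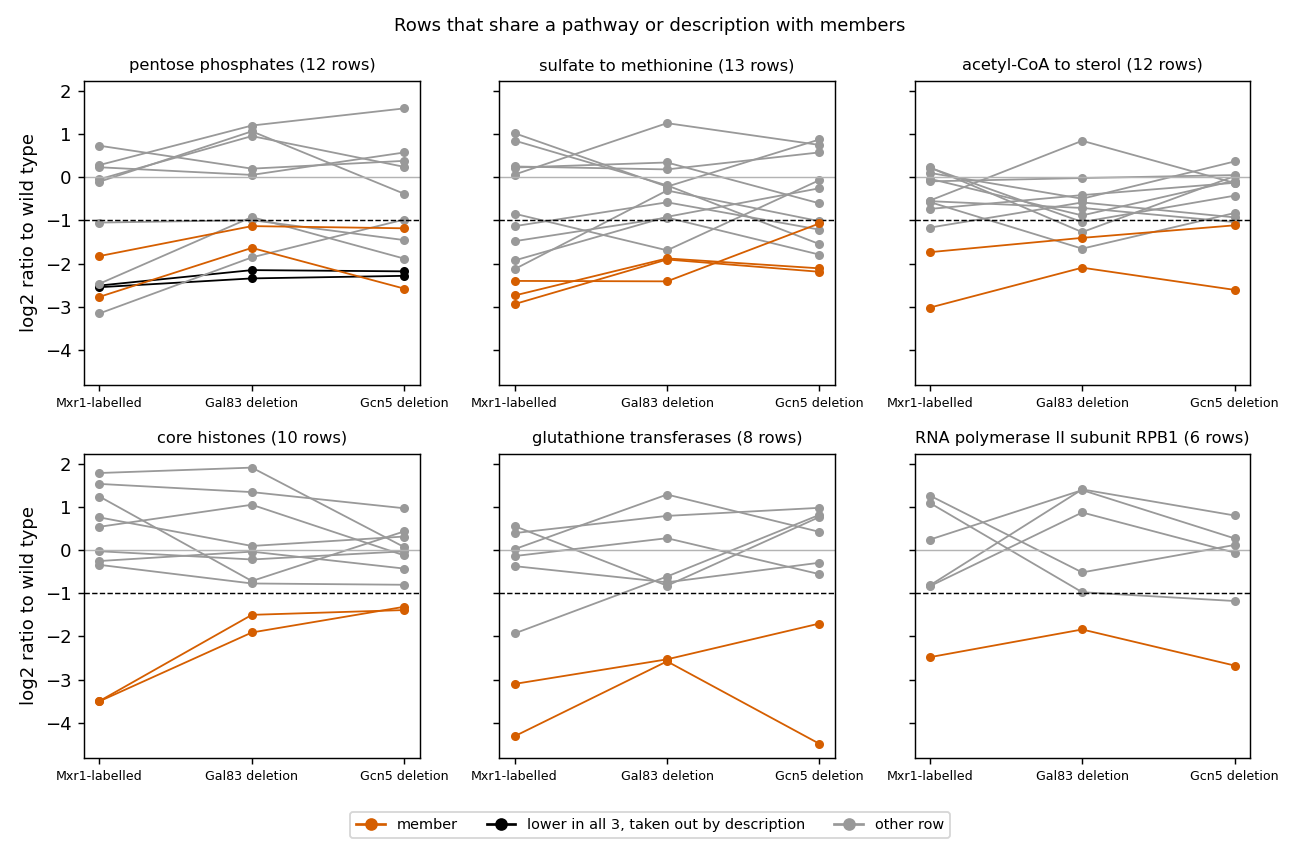
Log2 ratio to the wild type (y axis) in the 3 deletion libraries (x axis) for rows of 6 pathways or descriptions, with members in orange, rows taken out by description in black and other rows in grey. Lines join the values of 1 row. The members lie under the dashed 2-fold line because this chose them, while most histone, glutathione transferase and RPB1 rows lie above it.

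Enzymes that oxidise organic acids were represented by 2 members. Cytochrome b2 (gene5129), the mitochondrial enzyme that oxidises L-lactate to pyruvate, had 8353 scaled counts in the wild type and 1133, 1717 and 2119 in the deletion libraries. Malic enzyme (gene4165), which converts malate to pyruvate, had 12036, 1228, 4268 and 5325, with the Mxr1-labelled library standing well under the others. Both were lowest in the Mxr1-labelled library and highest in the Gcn5-deletion library among the mutants.

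A further 10 members had descriptions of an enzyme or an enzyme fold without a pathway. An FAD/NAD(P)-binding row (gene4110) had 14741 scaled counts in the wild type and 941, 3251 and 2606 in the deletion libraries. Of 18 rows with that description 3 were members, and the other 2 differed in size: gene8 was at log2 -2.82, -1.69 and -1.28 and gene347 at -1.34, -1.47 and -1.73. A phosphoglycerate mutase-like row (gene1861), a fold found in mutases and in phosphatases, had 47179 scaled counts in the wild type and 6734, 16324 and 14050 in the deletion libraries. Of 6 rows with such a name it was the only member.

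The remaining 6 of these enzymes were at 13.1% to 48.0% of the wild type. An aminotransferase-like row (gene5058) of the pyridoxal phosphate enzymes was at 13.1%, 32.9% and 36.2%. An alpha/beta-hydrolase (gene1122) was at 18.0%, 30.0% and 29.4%, and a copper amine oxidase row (gene2727), of the enzymes that oxidise primary amines, at 26.5%, 36.1% and 32.7%. The other 2 copper amine oxidase rows went the other way in the Gal83-deletion library, at log2 2.61 (gene1297) and 1.57 (gene4721). An FMN-dependent fold (gene1292), an esterase named for isoamyl acetate (gene5235) and a methyltransferase fold that uses S-adenosylmethionine (gene3996) completed the group. They were at 21.4%, 34.7% and 41.7% (gene1292), 21.5%, 48.0% and 32.8% (gene5235) and 25.9%, 35.9% and 24.1% (gene3996).

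The widest range among the strains was that of a protease. The row described as a papain-like cysteine protease (gene5264) had 34503 scaled counts in the wild type, 524 under the Mxr1 label, 3862 without Gal83 and 11884 without Gcn5, or 1.52%, 11.2% and 34.4% of the parent level. The row before it in the table is an alcohol oxidase row (gene5263), which was at log2 -2.54, -2.73 and -1.80 and so had a different order among the strains from the protease row, at -6.04, -3.16 and -1.54. The row after it, an undescribed protein (gene5265), was at -2.29, -1.93 and -0.40 and missed the rule without Gcn5 alone. The other papain-like row (gene1618) was 2105, 69054 and 2888 scaled counts in the deletion libraries against 3727 in the wild type, which places it far higher in the Gal83-deletion library. A zinc metalloprotease row (gene3819) was at 48.1%, 22.7% and 31.6%, with the least difference in the Mxr1-labelled library.

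Among membrane proteins, 3 were members. The low-affinity Fe(II) transporter (gene1662), a plasma membrane importer of iron, had 2706 scaled counts in the wild type, 165 under the Mxr1 label, 170 without Gal83 and 1338 without Gcn5. It was 16.4-fold and 15.9-fold lower in the first 2 deletion libraries. In the last it was at log2 -1.02 [-1.12 to -0.92], an interval that crosses the threshold. An ammonia export protein (gene764) was the second most even member, with 14555 scaled counts in the wild type and 3520, 3004 and 2880 in the deletion libraries. The row beside it, with the same description (gene765), was at log2 2.13, -2.94 and 1.08. Of 5 rows described as ammonia export proteins, gene483 was at 6.94, -0.39 and 0.58 and gene717 at -2.89, -0.48 and -1.30. The last of the 5, gene2342, was at -0.03, 2.17 and -0.51. Transporter MCH1 (gene1090), related in Saccharomyces cerevisiae to monocarboxylate carriers, was at 43.5%, 39.8% and 30.7%.

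The 6 members described as transcription factors, histones or an RNA polymerase II subunit included a homeobox protein with high counts. The homeobox transcription factor row (gene1928), of a DNA-binding family, had 24539 scaled counts in the wild type and 1720, 7791 and 5930 in the deletion libraries. A homeodomain-like row (gene2188) had 1513, 298, 260 and 679. Of 6 homeobox and homeodomain rows these 2 were the members. The other homeodomain-like row (gene4361) was at log2 0.29, 1.05 and -0.40, and a homeodomain repressor row (gene3713) at -1.02, 2.50 and 2.18. The remaining rows were gene1085, at -0.79, -0.41 and -0.15, and gene5284, at 0.60, -0.35 and -0.22. The Tos4 row (gene676), known in Saccharomyces cerevisiae as a factor of the start of the cell cycle, was at 25.1%, 46.7% and 38.4% of the wild type. 

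Core histones, the proteins that package DNA, contributed 2 adjacent rows. The first (gene1886) had 5417 scaled counts in the wild type, 477 under the Mxr1 label, 1440 without Gal83 and 2176 without Gcn5. The second (gene1887) had 3922, 346, 1384 and 1494, so the pair moved in parallel in the Mxr1-labelled library, both at log2 -3.50. The table does not say which histone each row encodes. None of the other 8 histone rows was at least 2-fold lower in any deletion library, and 3 were at least 2-fold higher in the Mxr1-labelled and 3 in the Gal83-deletion library. Of these 8, gene2594 was under the wild type in each, at log2 -0.35, -0.78 and -0.81. The adjacent pair gene1623 and gene1624, with the same description, was at log2 1.53 and 1.78 under the Mxr1 label and 1.34 and 1.91 without Gal83.

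A row described as the largest RNA polymerase II subunit, RPB1 (gene460), had 11313 scaled counts in the wild type and 2023, 3157 and 1769 in the deletion libraries. The table gives that description to 6 rows, although yeasts are known to have a single gene for this subunit, so the name is not a safe guide to what gene460 encodes. The other 5 rows were between log2 -1.18 and 1.40.

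The ribosomal protein that remained (gene721) is described as a large-subunit protein nearly identical to Rpl9A. It had 7178 scaled counts in the wild type, 1800 under the Mxr1 label, 1162 without Gal83 and 3170 without Gcn5. A second row with the same wording (gene566) had 7423, 6198, 3466 and 8133, and reads of such copies may have been divided between them. All 8 large-subunit rows described as nearly identical to a partner were at least 2-fold lower in the Gal83-deletion library, 3 were in the Mxr1-labelled library and gene721 alone was in the Gcn5-deletion library. Smaller differences without Gcn5 reached log2 -0.44 (gene2972) and -0.42 (gene548).

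Proteins of signalling, division and the cell wall gave 6 members with moderate differences, at 21.6% to 49.7% of the wild type. A row of the tyrosine phosphatase superfamily (gene897) was at 21.6%, 33.1% and 42.7%. An F-box protein (gene3229), of the family that selects proteins for ubiquitin ligases, was lowest in the Gcn5-deletion library at 35.7%, 32.3% and 23.1%. A kinase described as a haspin homolog (gene4967), of the family that phosphorylates histone H3 at mitosis in other eukaryotes, was at 36.9%, 28.0% and 44.0%. A SUN family protein (gene1726), of a group linked to the cell wall, was at 45.4%, 23.6% and 47.2%. The kinetochore protein Dam1 (gene5288), which holds chromosomes to microtubules, and a mitochondrial DNA repair protein (gene2077) were the others, at 49.7%, 33.1% and 38.3% and at 30.7%, 39.9% and 45.1%.

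Of the 53 members, 6 (11.3%) had no description of a product, close to the 13.3% of all rows. The undescribed row gene2294 had the lowest mean ratio of the whole set, from 323 scaled counts in the wild type to 7.12 under the Mxr1 label, 26.7 without Gal83 and 56.8 without Gcn5. Its Mxr1-labelled value rests on 6 reads, and its log2 ratio there was -5.39 [-6.96 to -4.37]. The undescribed row gene1394 had 4746, 173, 1249 and 687 scaled counts, and gene5328 had 2710, 285, 483 and 1190. Both were lowest in the Mxr1-labelled library.

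A short undescribed stretch was formed by gene4353 and gene4354, neighbouring rows near one end of the third set of locus tags whose descriptions are names of genome sequences of other fungi. Their counts ran in parallel, with gene4353 at 0.755, 0.778, 0.779 and 0.811 of gene4354 in the 4 libraries. Whether they are parts of 1 transcript was not tested. The last undescribed member (gene715) was at 38.1%, 33.1% and 48.5% of the wild type. Another 3 members carry the name of a protein of other organisms, which says little about a yeast gene: Internalin-I (gene3942) had 43693 scaled counts in the wild type and 13027, 19284 and 11918 in the deletion libraries, cytokine inducing glycoprotein (gene4397) had 4760, 1213, 2254 and 781, and Protein lin-49 (gene4134) had 2259, 733, 470 and 1061. A last 3 were known by a common fold alone, among them the P-loop row gene949, the most even member at 35.9%, 35.4% and 38.6%. The other P-loop row (gene3201) was at 28.7%, 30.9% and 44.6%, and a YVTN repeat-like row (gene5037) at 47.1%, 48.9% and 36.6%.

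**Figure D3:**
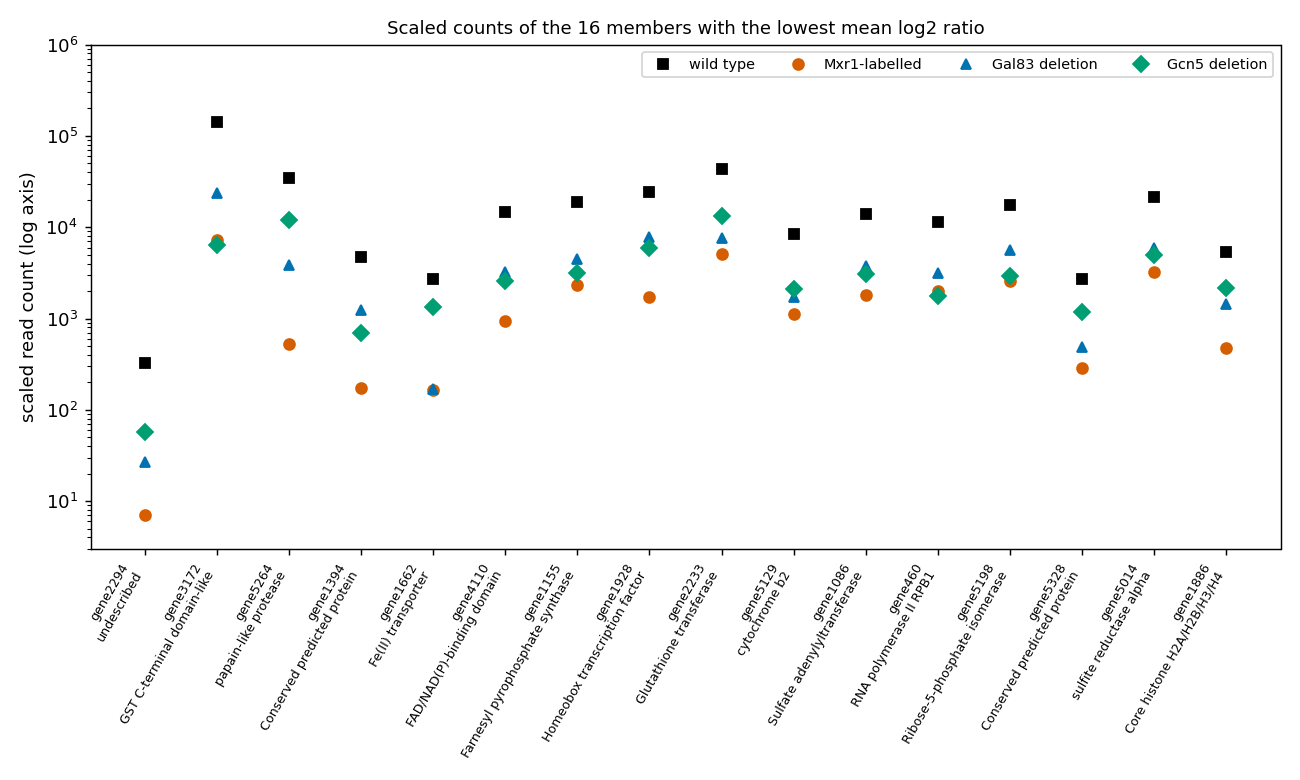
Scaled read counts (y axis, log scale) of the 16 members with the lowest mean log2 ratio (x axis), with 1 symbol for each of the 4 libraries. The wild-type square is highest in every column by the choice of members, while the order of the 3 deletion libraries changes from gene to gene.

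The order among the deletion libraries comes from the same values that chose the members, so it is a description of the set and is not independent of the rule. Of the 53 members, 32 (60.4%) had their lowest level under the Mxr1 label, 11 (20.8%) without Gal83 and 10 (18.9%) without Gcn5. Over all rows, which were not selected, these shares were 32.1%, 35.7% and 32.2%, and nothing is read from the difference. The median member was at log2 -0.61 in the Mxr1-labelled relative to the Gal83-deletion library and at -0.63 relative to the Gcn5-deletion library, where the medians of all rows were -0.002 and -0.004. Between the Gal83-deletion and Gcn5-deletion libraries the members' median was -0.11, with 27 of 53 lower in the first, and scaling by total counts turned this order, to 0.36.

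Evenness varied widely. The 3 deletion libraries lay within 1.5-fold of one another for 12 members and more than 4-fold apart for 9. These counts were not taken over all rows. The median range over these libraries was 0.997 log2 units for the members and 0.872 for all rows, so unevenness is not particular to the set. The most even members were the P-loop row gene949, the ammonia export row gene764, the thioredoxin-like row gene4552, the FAD/NAD(P)-binding row gene347 and the folate enzyme gene1508. The least even were the papain-like row gene5264, the iron transporter gene1662, the undescribed rows gene2294 and gene1394 and the histone row gene1886. For each of these 5 the Mxr1-labelled library was the lowest. For gene1662 it was nearly level with the Gal83-deletion library, at log2 -4.03 [-4.29 to -3.79] against -3.99 [-4.22 to -3.78]. The GST-like row gene3172 was among the few with the lowest level in the Gcn5-deletion library and a wide range.

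**Figure D4:**
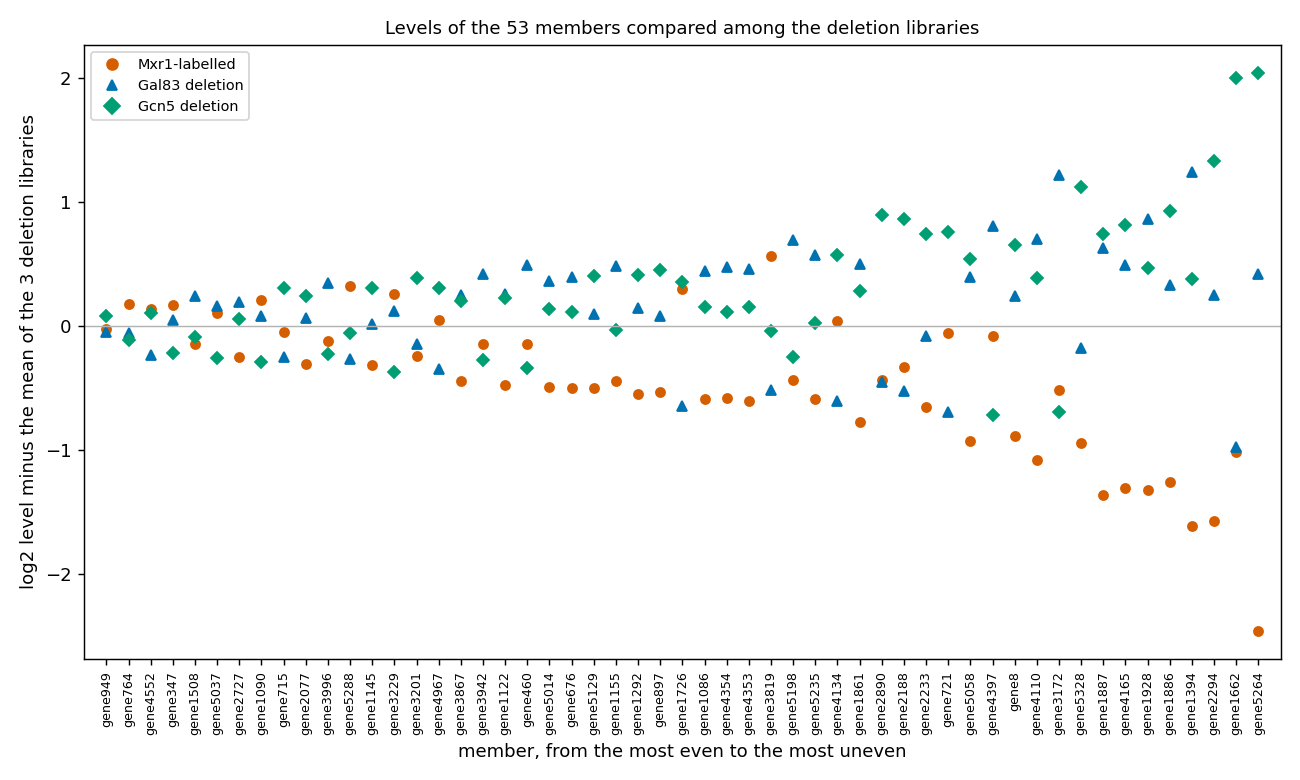
Log2 level of each member in the 3 deletion libraries minus their mean (y axis), for the 53 members ordered by their range over these libraries (x axis). The range runs from 0.12 for gene949 to 4.50 for gene5264, and the circles of the Mxr1-labelled library lie lowest for most uneven members on the right.

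Word lists matched on the descriptions place part of the set against the rest of the genome. Of the 53 members, 32 were in at least 1 list and 21 were in none. Some were missed through their wording, so the shares follow word matching as well as function. The isoprenoid list, for example, held 1 member, although 2 isoprenoid enzymes are described above. The oxidoreductase list held the most members, 9 of 382 rows (2.36%), followed by amino acids with 7 of 247 (2.83%). Over all rows compared the share of members was 53 of 5420 (0.978%). In the oxidoreductase list 68, 52 and 29 rows were at least 2-fold lower, beside 10.4%, 11.0% and 5.09% of all rows. Transcription held 4 of 353, chromatin 3 of 130 and carbon metabolism 3 of 180. Transport (227 rows), signalling (308), redox and stress (111) and cell cycle (193) held 2 each. Isoprenoids and lipids, ribosome and RNA, cell wall, proteases and mitochondria held 1 each. Cofactor synthesis (138 rows), nucleotides and one-carbon units (82), translation (79) and vesicles (214) held none. The folate enzyme gene1508, placed above among the one-carbon members, was not matched by the nucleotide and one-carbon list. The methanol and peroxisome lists held no member either, as their rows lower in all 3 had been taken out.

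The members were spread over the genome. By the chromosome number in their locus tags, 17, 12, 12 and 12 fell on the 4 chromosomes, which is 1.03%, 0.858%, 0.923% and 1.13% of the rows there. Neighbouring rows were both members in 2 places, the histone pair and gene4353 with gene4354. Within 20 rows of the end of a chromosome's tags lay 4 members (7.55%), against 2.93% of all rows: gene8, gene1662, gene4353 and gene4354. The members had more counts in the wild type than the usual row, with a median of 10315 against 2914 for all rows, and 42 of 53 were above that median. The wild-type count enters all 3 ratios of the rule, which favours rows high in that library, and counts also follow gene length, so this describes the selection and is not a comparison of expression.

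The edge of the set was not sharp. The last rows inside it by their highest ratio were gene5037, gene1662 and gene5288, at log2 -1.03, -1.02 and -1.01. The first outside were a transcription factor B subunit (gene5206) at -0.999, the isomerase gene5197 at -0.996 and a row for an Esa1-associated factor (gene2672) at -0.991. Within 0.2 log2 units of the threshold there were 24 members inside and 46 rows outside, so membership near the edge is a matter of a small difference. With a 3-fold rule 14 members remained, and with the bound of the counting interval also past 2-fold 43 did.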

How the data were processed

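Per the labels' protocols, ribosomal RNA was removed using a bacterial depletion kit before library preparation; strandedness was not stated there. The submitters' processing notes list, with no role for any, featureCounts 1.6.4, Bowtie2, DESeq2, fastp 0.19.6 and bcl2fastq 2.19.0.316. Neither genome build nor annotation is given in the sources used here. What the authors deposited is a set of whole-number read counts, 1 table of 5427 rows with 1 column per strain. Gene names come from its descriptions, since 0 locus tags matched the reference table at hand, built on a different strain.

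The comparison kept 5420 rows whose mean reached 20 counts. Size factors and log2 ratios after adding 0.5 to each count were computed in R 4.3.3 with edgeR 4.0.16 (for the alternative factors) and Python 3.11.15 with numpy 2.4.6, pandas 2.3.3 and scipy 1.17.1, and checked on simulated counts. With 1 library per strain there was no test and no p-value. The members, function lists and named genes were chosen with earlier results of these data known. With 60 or fewer members the rule was to name each described one, plus the extremes by ratio, count and spread and the rows beside the threshold; undescribed members are also all named. The 20 word lists can overlap. The 13 pathway and description lists were added after the values were seen. Roles were assigned by hand from the descriptions. Protein and promoter sequences were not analysed here.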

Additional observations from a re-analysis of the deposited data

How the results depend on the processing

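The set held 53 members with TMM factors and with a filter at a mean of 100 counts, 54 with no filter, 52 with 5 added to each count, 53 with 0.5 added after scaling and 63 with upper-quartile factors. With total counts it held 76, of which 46 were shared and 7 members were lost, and this scaling moved the median of all rows by -0.34, 0.15 and -0.32 log2 units under the Mxr1 label, without Gal83 and without Gcn5. It also gave 1023 and 588 lower rows in the Mxr1-labelled and Gcn5-deletion libraries. For the original 53 members, not the 76, this scaling gave medians of -2.55, -1.49 and -1.79. Their medians between libraries were then -1.11 (Mxr1-labelled over Gal83 deletion) and 0.36 (Gal83 deletion over Gcn5 deletion). The sign of the last is opposite to that reported, which is the shift of these 2 libraries by the scaling. Upper-quartile factors gave the original 53 members a median of -2.31 for the Mxr1-labelled library and -0.72 for it over the Gcn5-deletion library. Thresholds of 1.5-fold and 3-fold gave 185 and 14 members. Asking for 2 deletion libraries in place of 3, chosen after seeing the data, gave 75 rows without the Mxr1-labelled library, 122 without the Gal83-deletion library and 183 without the Gcn5-deletion library. Of the members, 45 stayed under each of 6 settings: total counts, TMM, upper-quartile, no filter, the filter at 100 and 5 added. The rows lost were gene4397, gene5235, gene4354, gene4353, gene676, gene3867 and gene5037 with total counts and gene5288 with 5 added. No paired analysis was possible because each strain has 1 library.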
